A study of Mus musculus with 2 samples.

Results

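The 45 genes described here encode the core machinery of the cell cycle and of replication licensing: cyclins and their kinases, the phosphatases and kinase that switch them, inhibitors of cyclin-dependent kinases (CDKs), the retinoblastoma family, the E2F factors, the MCM helicase and the Myc factors Myc and Mycn. They were chosen by name, and a peak was counted for a gene where the deposited list of open chromatin regions gave that gene's symbol. Of 26232 distinct peaks in the list, 73 were assigned to these genes. All 45 symbols were found in the gene annotation.

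The peaks come from ATAC-seq, in which the Tn5 transposase cuts accessible DNA and leaves sequencing adapters there, of mouse cardiac progenitor cells (CPCs), obtained from embryonic stem cells by 5 days of a directed differentiation protocol. The parental line was E14 Tg(Nkx2-5-EmGFP), which reports Nkx2-5, a factor of early heart cells, through a green fluorescent protein, and the labels give passages 16 to 20 and the strain as C57BL/6. Both samples belong to 1 group of control CPCs with 2 replicates, and they are represented by 1 list of peaks that were found in both. The Isl1 knockdown cells named by the series were not analysed here. With 1 group and no value per replicate, no replicate error and no test between conditions could be computed, and read depth was unknown. Against the 62.5% of all genes with an assigned peak, 7 of 8 cardiac progenitor, 4 of 6 cardiomyocyte, 4 of 5 pluripotent cell, 3 of 4 fibroblast, 3 of 4 endothelial or blood and 4 of 4 neural marker genes had one. Within 1 kb of the TSS these counts were 6, 3, 3, 3, 0 and 3, against 50.0% of all genes, and the cell type was not checked further.

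In a dividing cell, D-type cyclins with Cdk4 or Cdk6 and then cyclin E with Cdk2 phosphorylate the retinoblastoma family of pocket proteins, which releases E2F factors to switch on genes for DNA replication. The MCM complex is the helicase that is loaded onto origins in G1 and fires in S phase, and cyclin B with Cdk1 drives mitosis. Promoters of replication genes are known for E2F motifs, whereas promoters of mitotic genes are known for CCAAT boxes, bound by NF-Y, and for the cell cycle genes homology region (CHR), bound by the MuvB complex. Cardiac progenitors divide actively, and heart muscle cells leave the cell cycle as they mature.

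Open chromatin at these genes was mostly at their transcription start sites (TSSs). At least 1 peak was assigned to 41 of the 45 genes (91.1%, 95% Wilson confidence interval 79.3 to 96.5%), compared with 62.5% of 21900 protein coding genes. A peak with its midpoint within 1 kb of the assigned TSS was present at 40 genes (88.9%), against 50.0% of all genes. The number of peaks per gene was 1.62 on average over the 45 genes and 1.07 over all genes, but among genes with a peak these means were 1.78 and 1.71. A single peak was assigned to 26 genes, and each of these peaks lay within 1 kb of the TSS. Another 7 genes had 2 peaks, 4 had 3, Ccnd1, Ccnd3 and Mycn had 5 each, and Cdk6 had 6.

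**Figure D1:**
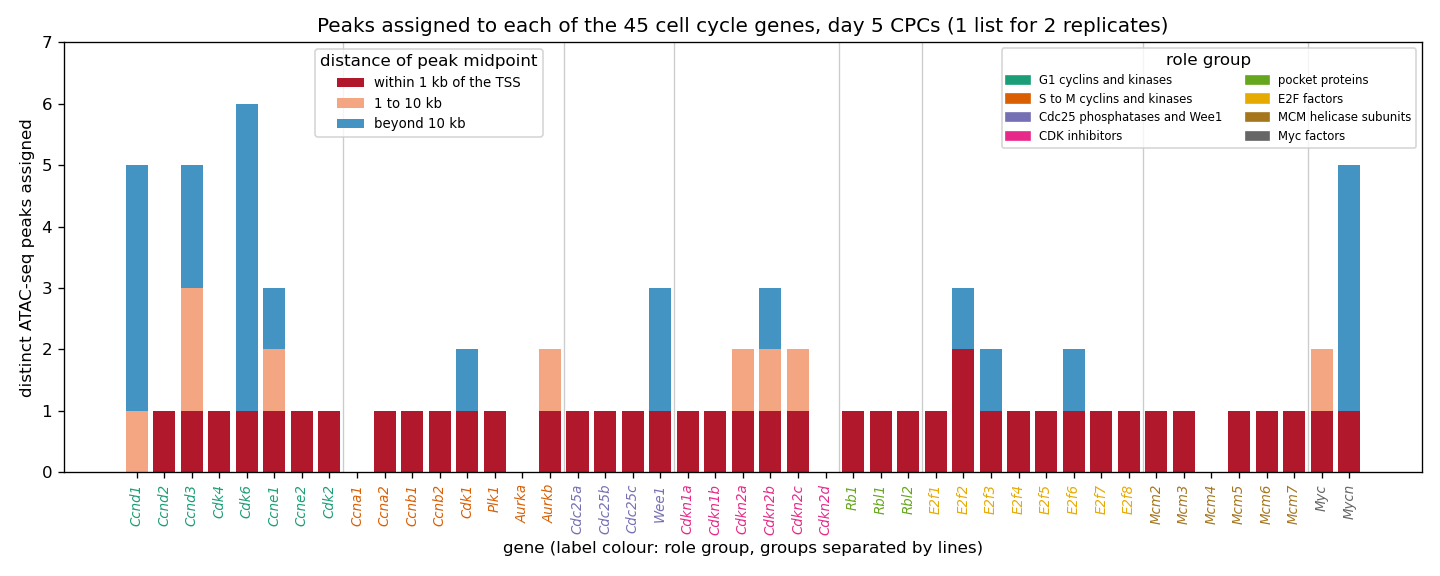
Number of distinct ATAC-seq peaks assigned to each of the 45 genes (bars, vertical axis), split by the distance of the peak midpoint from the assigned TSS, with genes on the horizontal axis grouped by role. Most genes carried 1 peak within 1 kb, 4 genes carried none, and Cdk6 carried the most with 6.

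Base composition accompanied this pattern. For each gene a promoter was taken as the 5′-most protein coding TSS with 500 bp on either side, and CpG-rich promoters were those with 0.6 or more of the CpG dinucleotides that their C and G content predicts (the CpG ratio) and 50% or more G and C. By this measure 37 of the 45 promoters (82.2%) were CpG-rich, against 44.7% of 22219 protein coding promoters. A peak overlapped 33 of the 37 CpG-rich promoters (89.2%), which was the background level, since 89.4% of all CpG-rich promoters overlapped a peak. Of the 8 CpG-poor promoters 6 overlapped a peak (75.0%), against 24.9% of all CpG-poor promoters. These sets were not matched for CpG content. Among the 6, Mcm7, Cdc25b, Cdk1 and Ccnd2 had CpG ratios of 0.56, 0.54, 0.53 and 0.52, not far below the limit of 0.6. Mcm2 fell below it only before rounding to 0.6. Cdc25c met it, at 0.7, and fell just short of 50% G and C. All 6 thus lay near a limit, and the 75.0% does not describe promoters far below both limits. The CpG-poor promoters without a peak were those of Cdkn1a and Ccnd3, with ratios of 0.13 and 0.47. Both were scored at the 5′-most TSS, whereas a listed peak covered a downstream start. The part of CpG content in the share of genes with a peak was not tested beyond this split.

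The sequences just upstream of these genes are printed because they show where promoter motifs lie relative to the TSS. The promoters were searched on both strands for E2F motifs (TTTCCCGC, TTTGGCGC, TTTCGCGC or TTTGCCGC), for the CCAAT box (CCAAT) and for CHR motifs (TTTGAA or TTCGAA, of which the latter reads the same on both strands). Matches of the E2F motifs can overlap one another. All 3 kinds were present in 10 promoters, and of the first 8 of these by name, 6 had a match in the 200 bases upstream of the TSS. These 6 are shown on mm9 in the direction of transcription, ending at the base before the TSS, with matches of any of the 3 kinds in capitals.
Mcm2, chr6:88848775-88848974, minus strand: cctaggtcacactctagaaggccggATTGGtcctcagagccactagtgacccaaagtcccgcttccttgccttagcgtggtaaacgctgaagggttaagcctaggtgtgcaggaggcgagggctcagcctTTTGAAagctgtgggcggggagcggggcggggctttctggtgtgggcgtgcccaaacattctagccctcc
Mcm3, chr1:20810360-20810559, minus strand: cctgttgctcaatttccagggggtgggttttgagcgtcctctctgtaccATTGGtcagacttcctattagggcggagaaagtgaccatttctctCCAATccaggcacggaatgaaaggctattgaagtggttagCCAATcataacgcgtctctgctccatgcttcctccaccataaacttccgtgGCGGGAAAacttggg
Mcm6, chr1:130256234-130256433, minus strand: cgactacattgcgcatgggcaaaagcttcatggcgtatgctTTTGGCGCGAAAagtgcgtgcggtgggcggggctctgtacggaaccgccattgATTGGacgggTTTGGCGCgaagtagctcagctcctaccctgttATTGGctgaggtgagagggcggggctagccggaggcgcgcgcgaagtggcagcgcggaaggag
Cdk1, chr10:68815687-68815886, minus strand: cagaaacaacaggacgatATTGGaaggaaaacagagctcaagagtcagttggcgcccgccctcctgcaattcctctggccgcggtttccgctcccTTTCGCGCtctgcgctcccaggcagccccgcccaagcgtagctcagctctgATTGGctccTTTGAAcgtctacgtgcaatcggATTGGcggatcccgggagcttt
Cdkn2a, chr4:88940558-88940757, minus strand: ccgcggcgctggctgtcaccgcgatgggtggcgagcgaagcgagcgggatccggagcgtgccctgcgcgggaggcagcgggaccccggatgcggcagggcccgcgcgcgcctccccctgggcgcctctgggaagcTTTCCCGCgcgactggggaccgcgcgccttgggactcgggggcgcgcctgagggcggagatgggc
E2f8, chr7:56136967-56137166, minus strand: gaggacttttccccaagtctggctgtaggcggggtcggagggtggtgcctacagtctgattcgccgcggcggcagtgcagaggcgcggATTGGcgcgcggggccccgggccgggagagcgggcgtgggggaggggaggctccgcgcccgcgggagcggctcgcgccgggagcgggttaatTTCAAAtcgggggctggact

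The subunits Mcm2, Mcm3 and Mcm6 belong to the replicative helicase, Cdk1 is the mitotic kinase, E2f8 is a repressive E2F factor, and the sequence of Cdkn2a lies before the upstream start of that gene. In the same way, 5 further promoters were chosen after their matches had been seen, for E2F matches in the helicase genes Mcm4 and Mcm5 and in Mycn, and for CCAAT boxes in the cyclin gene Ccnb2 and the mitotic kinase gene Aurkb. None of the Mcm4 matches lay in a peak.
Mcm4, chr16:15637494-15637693, minus strand: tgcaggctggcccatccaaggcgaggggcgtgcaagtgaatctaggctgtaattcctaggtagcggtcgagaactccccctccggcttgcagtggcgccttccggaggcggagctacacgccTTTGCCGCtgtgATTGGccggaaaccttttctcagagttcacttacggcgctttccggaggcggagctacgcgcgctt
Mcm5, chr8:77633227-77633426, plus strand: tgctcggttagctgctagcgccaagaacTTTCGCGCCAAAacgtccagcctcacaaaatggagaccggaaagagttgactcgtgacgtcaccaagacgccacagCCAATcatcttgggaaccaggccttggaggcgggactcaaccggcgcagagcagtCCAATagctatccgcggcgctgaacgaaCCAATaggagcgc
Mycn, chr12:12948721-12948920, minus strand: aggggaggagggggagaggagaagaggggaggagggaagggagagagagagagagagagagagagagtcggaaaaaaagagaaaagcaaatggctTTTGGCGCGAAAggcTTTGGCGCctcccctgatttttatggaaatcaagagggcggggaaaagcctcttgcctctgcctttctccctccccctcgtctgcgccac
Ccnb2, chr9:70269362-70269561, minus strand: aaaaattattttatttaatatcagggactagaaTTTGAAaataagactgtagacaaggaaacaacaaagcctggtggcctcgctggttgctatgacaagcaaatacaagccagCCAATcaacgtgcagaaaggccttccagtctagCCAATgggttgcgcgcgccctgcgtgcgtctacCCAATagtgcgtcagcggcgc
Aurkb, chr11:68858949-68859148, plus strand: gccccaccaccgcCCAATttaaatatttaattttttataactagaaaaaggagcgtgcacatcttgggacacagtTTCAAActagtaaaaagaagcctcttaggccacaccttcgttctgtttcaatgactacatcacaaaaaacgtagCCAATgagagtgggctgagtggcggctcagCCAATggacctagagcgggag

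An E2F motif was present in 21 of the 45 promoters (46.7%, 32.9 to 60.9%), against 7.33% of all promoters and 12.3% of CpG-rich promoters. The matches were spread unevenly over the roles. They occurred in all 6 MCM promoters, both Myc promoters, 5 of 8 E2F promoters and 2 of 3 pocket protein promoters, but in 2 of 8 promoters of the G1 cyclins and kinases and in 1 of 8 promoters of the S to M cyclins and kinases, that of Cdk1. With a shorter window, from 250 bp upstream to 50 bp downstream of the TSS, 14 of the 45 promoters held a match, against 2.79% of all. A match lay within a peak in 19 of the 21 genes. The other two were Mcm4 and Cdkn2d, neither of which had a peak at its TSS. In all, 31 of 34 single matches lay within a peak. The other motifs of these promoters were alike, with 34 of 39 CHR matches and 64 of 76 CCAAT matches within a peak. A peak overlapped 39 of the 45 promoters (86.7%), against 53.7% of all protein coding promoters, so these counts are no trait of E2F motifs.

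Overlapping E2F matches on opposite strands formed an unbroken run of 12 bases in 4 promoters. The run was TTTCGCGCGAAA in Mcm2 (chr6:88848681-88848692), TTTCGCGCCAAA in Mcm5 (chr8:77633255-77633266), and TTTGGCGCGAAA in both Mcm6 (chr1:130256381-130256392) and Mycn (chr12:12948814-12948825). Its first base was at −172 from the TSS in Mcm5, at −159 in Mcm6, at −105 in Mycn and at 82 in Mcm2. Such runs occurred in 9 of 22219 promoters (0.0405%). The TSSs of the 4 cell cycle genes with a run lay in a peak. This count was made after the matches had been seen.

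The CCAAT box was common everywhere. It was present in 35 of the 45 promoters (77.8%, 63.7 to 87.5%), against 70.4% of all and 63.9% of CpG-rich promoters. The interval included both of these values. All 8 promoters of the S to M cyclins and kinases held a CCAAT box. Within the 100 bases before the TSS, 18 of the 45 promoters (40.0%) held a CCAAT box, against 20.5% of all. Other stretches of 100 bases were counted too, and no interval was computed for them. From 250 bp upstream to 50 bp downstream of the TSS, 23 of the 45 promoters held a box (51.1%, 37.0 to 65.0%). The shares were 37.9% of all and 37.4% of CpG-rich promoters, and the interval included both. Pairs of boxes at a like distance recurred among the S to M cyclins and kinases. Boxes whose first bases lay 30 to 33 bp apart were found in 5 of the 8 S to M promoters, in 7 of all 45 and in 2.29% of all promoters. In Ccnb2 they began at −87, −54 and −21, in Cdk1 at −54 and −22, in Aurka at −86 and −54, in Aurkb at −51 and −21, and in Ccnb1 at −15 and 17. The other two genes with such a pair were E2f7 and Cdkn2c. No S to M promoter had a pair 20 to 23, 25 to 28, 35 to 38 or 40 to 43 bp apart. The 30 to 33 bp range was set after the positions had been seen, so the count of 5 of 8 is a description. Outside the 45 genes, 0 of 14 promoters of mitotic checkpoint and anaphase genes and 1 of 48 promoters of further cell cycle genes had a pair in it.

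CHR motifs are short and were frequent in promoters of any kind. They were present in 27 of the 45 promoters (60.0%), against 47.1% of all. In the shorter window from 250 bp upstream to 50 bp downstream of the TSS, CHR motifs were present in 5 of 8 S to M promoters and in 12 of all 45. The shares were 17.7% of all promoters and 11.5% of CpG-rich promoters. In Cdk1 a TTTGAA began at −45, between its paired CCAAT boxes, and another at 11. In Plk1, the polo-like kinase of mitosis, the match began at 28, and in Aurka it began at −3.

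**Figure D2:**
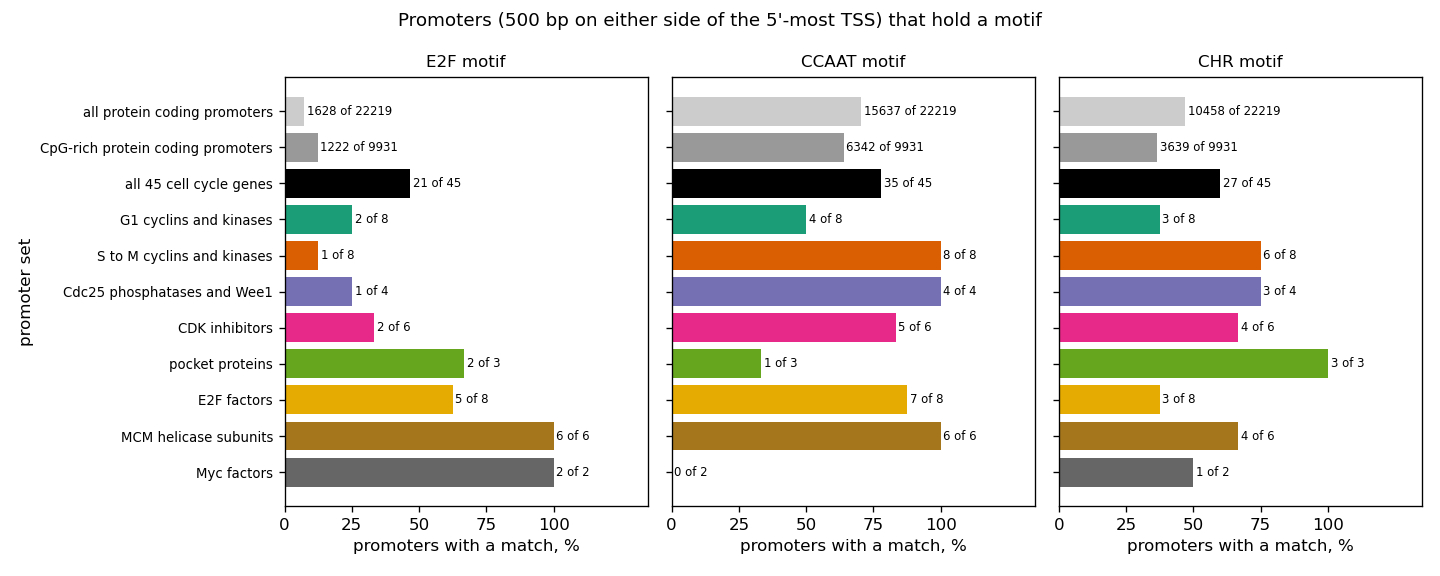
Share of promoters (horizontal axis, percent) that hold an E2F, CCAAT or CHR motif within 500 bp of the 5′-most TSS, for all protein coding promoters, CpG-rich promoters, the 45 genes together and each role group, with counts beside the bars. E2F motifs were in 6 of 6 MCM promoters and 1 of 8 S to M promoters, against 7.33% of all promoters.

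The G1 cyclins and kinases held the most peaks of any role group, 23 over 8 genes, of which 12 lay beyond 10 kb from the assigned TSS. In Cdk6, a kinase partner of the D-type cyclins, the TSS peak spanned 3966 bp (chr5:3341037-3345002), which placed it at the 99.7 percentile of all peaks within 1 kb. Upstream of it, 4 peaks of 720 to 1156 bp lay at −260100, −145386, −53591 and −23514 bp, all in intergenic sequence. A further peak of 2477 bp lay in an intron of Cdk6 at 93035 bp, and its width was at the 99.2 percentile of peaks beyond 10 kb. For this peak the annotated coding gene Gm17590 had the nearer TSS, at 36249 bp. Cdk6 is the first annotated coding gene on its chromosome, so peaks upstream of it had no other coding gene on that side to be assigned to.

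Ccnd1, which encodes cyclin D1, differed from the other G1 genes in that its annotated TSS was not covered by a peak. The nearest peak was 2928 bp wide (chr7:152127005-152129932), and its midpoint lay 2638 bp upstream of the TSS by the deposited distance. Its GC content was 57.6% and its CpG ratio 0.66, values like those of peaks at a TSS, where the medians over all genes were 58.6% and 0.68. Another 3 peaks lay far upstream, at −105455, −91132 and −85478 bp, with widths of 985, 786 and 1358 bp. The last lay at 12001 bp, in an intron of the neighbouring gene Oraov1.

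The other D-type cyclins showed contrasting layouts. Ccnd2 had 1 peak, 3205 bp wide, with its midpoint at −973 bp. Ccnd3 had 5 peaks of 988 to 1454 bp, and those 4 that were not at the TSS all lay in introns of Ccnd3 itself. The deposited distances of Ccnd3 were measured from different starts, since 2 coding TSSs are annotated and only the downstream one was covered by a peak.

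The cyclin E genes also differed from each other. Ccne1 had a TSS peak of 1856 bp, one of 1219 bp at −4704 bp and one of 2803 bp at 21759 bp (chr7:38869350-38872152). The last was wider than the TSS peak itself and at the 99.6 percentile of peaks beyond 10 kb. The one peak of Ccne2 was 2685 bp wide and lay at its TSS. Cdk4 and Cdk2, the kinases of cyclin D and cyclin E, had 1 peak each, of 1885 and 1506 bp. The coding TSSs on either side of Cdk4 were 10.1 kb apart and those around Cdk2 9.99 kb apart, whereas those around Ccnd1 were 369 kb apart.

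The S to M cyclins and kinases had plain profiles, with 8 peaks over 8 genes. Ccna2, Ccnb1, Ccnb2 and Plk1 had a single peak each at the TSS, of 1301, 1399, 1044 and 1359 bp. Cdk1 had a TSS peak of 1343 bp and a second peak of 1618 bp at −45959 bp (chr10:68860811-68862428), with a GC content of 62.4% and a CpG ratio of 0.68, and among the 23 peaks of these genes beyond 10 kb it alone met the CpG-rich criteria. Over all distal peaks 5.49% met them. Aurkb, a kinase of chromosome segregation, had its TSS peak of 1308 bp and a wider peak of 2407 bp at −4814 bp.

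Neither Ccna1 nor Aurka had an assigned peak. The TSS of Ccna1, a cyclin A best known from the germ line, lay inside a peak of 1184 bp (chr3:54858684-54859867), which the list assigned to 4931419H13Rik. Aurka, the centrosomal Aurora kinase, shares its promoter region with Cstf1, whose TSS lies 146 bp away on the other strand. No peak lay at either start, and the nearest one, assigned to Fam210b, was centred 25000 bp from the Aurka TSS.

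The Cdc25 phosphatases activate CDKs and Wee1 inhibits them, and each of the 4 genes had a peak at its TSS. The widths were 1523 bp for Cdc25a, 1374 bp for Cdc25b, 1152 bp for Cdc25c and 1977 bp for Wee1. The peak of Cdc25b also covered a coding TSS of Spef1. Only Wee1 had distal peaks in this group, of 700 bp at −12723 bp and of 1521 bp at 42698 bp.

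Among the CDK inhibitors, Cdkn1a had one of the widest TSS peaks of the 45 genes. Cdkn1a encodes p21, a target of p53, and its peak was 2849 bp wide, at the 97.9 percentile of peaks within 1 kb. The midpoint lay 844 bp downstream of the assigned TSS, and the peak covered 1 of 3 annotated coding TSSs. The 5′-most TSS of Cdkn1a, used for base composition and motifs, lay outside any peak, 3635 bp from this midpoint. Cdkn1b, which encodes p27, had 1 peak of 1667 bp. Cdkn2c had a TSS peak of 2409 bp and one of 1175 bp at 7858 bp, which covered a TSS of the noncoding gene 9630013D21Rik. Cdkn2d had no assigned peak, and the nearest one, assigned to Ap1m2, was centred at −18301 bp from its TSS.

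The Cdkn2a and Cdkn2b genes lie next to each other and were open at every annotated coding start. This locus is known for encoding 3 tumour suppressors, with Arf made from an upstream start of Cdkn2a, Ink4a from a downstream start, and Ink4b from Cdkn2b. The Cdkn2b TSS lay in a peak of 1179 bp. The upstream Cdkn2a starts, 16384 and 16418 bp downstream of the Cdkn2b TSS, lay in a peak of 1874 bp (chr4:88939969-88941842) that the list assigned to the noncoding gene Gm12610. The downstream Cdkn2a start, at 28845 bp, lay in a peak of 1036 bp. Further peaks lay within Cdkn2a, 7137 bp past its downstream start (907 bp wide), 7565 bp past the Cdkn2b TSS (1376 bp), and 137849 bp upstream of it (657 bp, in an intron of Gm12610). The E2F match of Cdkn2a, at −65 from the upstream start, lay within the 1874 bp peak.

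**Figure D3:**
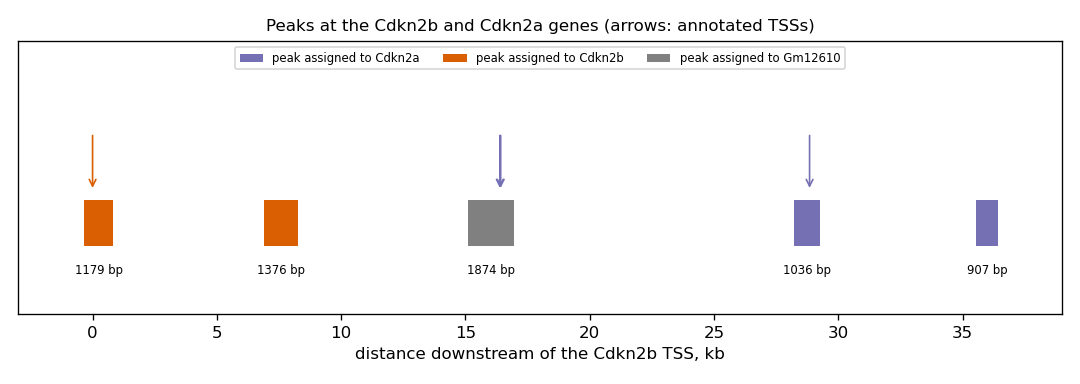
Peaks (boxes drawn to scale, coloured by the gene they were assigned to, with widths in bp) along the Cdkn2b and Cdkn2a genes, placed by distance downstream of the Cdkn2b TSS in kb, with arrows at annotated protein coding TSSs. Each TSS fell in a peak, and the peak at the upstream Cdkn2a starts was the widest of the 5 shown, at 1874 bp. The peak 137849 bp upstream of Cdkn2b lies outside the plot.

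The pocket proteins Rb1, Rbl1 and Rbl2, which hold E2F factors in check, had 1 peak each at the TSS and none elsewhere. Their widths were 1641, 1466 and 721 bp. The peak of Rbl2 was the narrowest of the 41 peaks within 1 kb, at the 2.8 percentile of all such peaks.

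All 8 E2F genes had a peak at the TSS, and their widths covered nearly the whole range seen in the 45 genes. E2f3, an activator of S phase genes, had a peak of 3950 bp (chr13:30074905-30078854, 99.7 percentile) that covered both of its annotated starts. E2f1, another activator, had one of 2801 bp, whereas the peak of E2f4, a repressor that works with the pocket proteins, was 863 bp wide. E2f8 had 1842 bp, E2f7 1304 bp, E2f6 1115 bp and E2f5 1070 bp. E2f2 had peaks of 958 and 1481 bp at its alternative starts and one of 1744 bp at −12488 bp. Distal peaks were also assigned to E2f3, at 61653 bp in its own intron, and to E2f6, at 39970 bp.

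Among the MCM genes, which encode the ring of the replicative helicase, open chromatin was found at the TSS alone. The 5 genes with a peak had 1 each, all at the TSS, of 1180 bp for Mcm2, 1151 bp for Mcm3, 1057 bp for Mcm5, 1019 bp for Mcm6 and 2159 bp for Mcm7. The peak of Mcm7 also covered a coding TSS of Ap4m1, and no MCM gene had a peak beyond 1 kb. For Mcm4 no peak lay at its TSS or at that of its divergent neighbour Prkdc, 466 bp away. The nearest peak to Mcm4, assigned to Ube2v2, was centred 43020 bp away, although the Mcm4 promoter sequence held E2F matches at −78 and −224 and a CCAAT box at −66.

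Myc and Mycn, which drive growth and proliferation, had contrasting distributions. Myc had 2 assigned peaks, of 2162 and 2251 bp, separated by 98 bp and covering its start region. The nearest coding TSSs on either side of Myc were 2890 kb apart. The list also assigns peaks to noncoding genes, and peaks of other symbols within this span were not counted. Mycn had a TSS peak of 2995 bp (98.4 percentile) and 4 distal peaks of 720 to 1220 bp, at −52445, −45132, 14505 and 131220 bp. For the last of these another annotated coding gene, Rpl36-ps3, had the nearer TSS. The span between the coding TSSs around Mycn was 337 kb.

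Across all 73 peaks, 41 lay within 1 kb of the assigned TSS (56.2%, 44.8 to 67.0%), against 44.9% of the whole list, and 9 lay between 1 and 10 kb. A further 23 lay beyond 10 kb (31.5%, 22.0 to 42.9%), against 41.4% of the whole list. Both intervals included the background. At least 1 distal peak was assigned to 11 of 45 genes (24.4%), close to the 23.9% of all genes. Of the 23, 20 belonged to the 8 genes that had at least 3 peaks (87.0%, 67.9 to 95.5%), whereas such genes accounted for 60.1% of all distal peaks. All peaks of a gene share this trait. The interval treats the 23 peaks as independent, so it was not read as a difference from the background. Having 2 or more peaks was seen for 15 genes (33.3%), against 24.4% of all, and 3 or more for 8 genes (17.8%), against 10.3%. The intervals, 21.4 to 47.9% and 9.29 to 31.3%, both included the background.

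Of the 23 distal peaks, 17 were intergenic (73.9%, 53.5 to 87.5%), against 52.6% of all distal peaks, and 6 were intronic (26.1%, 12.5 to 46.5%), against 41.6%. Upstream of the assigned TSS lay 14 (60.9%, 40.8 to 77.8%), against 43.3%. The intergenic share alone among these had an interval above the background, and a few genes contributed most of these peaks. The median width was 1017 bp, against 880 bp for all distal peaks, and the median GC content was 50.7%, against 50.9%. In the central 300 bp, a GATA motif (AGATAA or TGATAA), bound by the GATA factors of early heart cells, was present in 7 of 23 peaks (30.4%, 15.6 to 50.9%), against 24.3% of all distal peaks. A TEAD motif (GGAATG) was present in 8 of 23 (34.8%, 18.8 to 55.1%), against 23.3%. For both motifs the interval included the background.

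**Figure D4:**
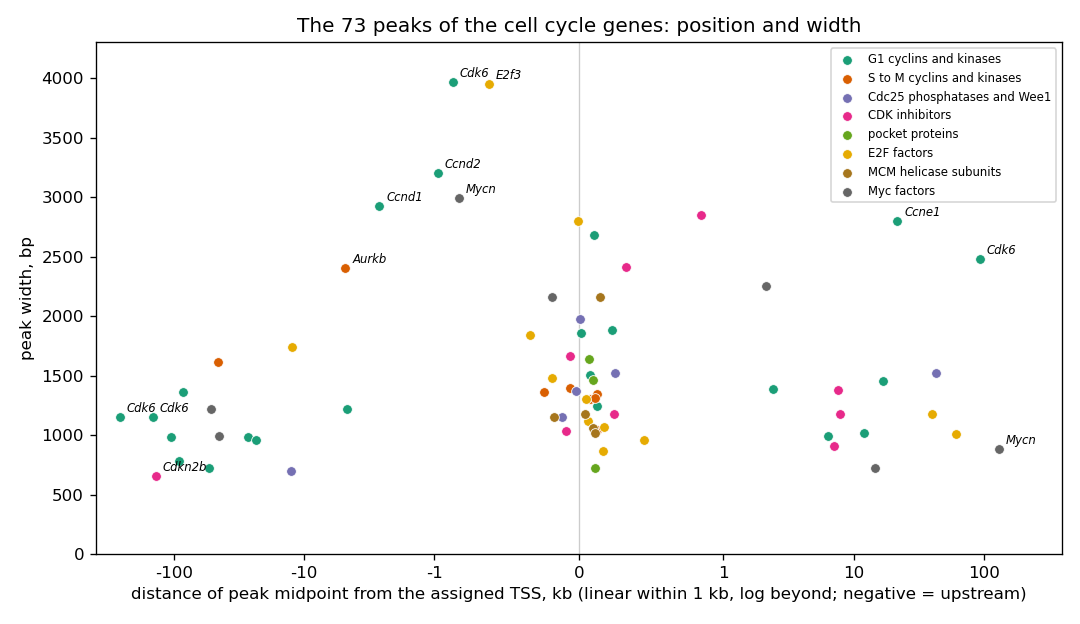
Width (vertical axis, bp) of the 73 peaks against the distance of their midpoint from the assigned TSS (horizontal axis, kb, linear within 1 kb and logarithmic beyond, negative upstream), coloured by role group. The widest peaks, of Cdk6 and E2f3, covered a TSS of their gene and had midpoints at −874 and −619 bp by the deposited distance. The distal peaks of Ccne1 and Cdk6 stood above the other distal peaks at 2803 and 2477 bp.

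Peaks within 1 kb of the TSS had a median width of 1399 bp with quartiles of 1152 and 1977 bp, against a median of 1326 bp for all 11772 such peaks. The range was wide, from 721 to 3966 bp. Of the 41, 10 were wider than 2 kb, against 13.3% of all. The 5 widest belonged to Cdk6, E2f3, Ccnd2, Mycn and Cdkn1a, and the 3 narrowest to Rbl2, E2f4 and E2f2. By role, the median TSS peak was 2578.5 bp for the Myc factors, 1885 bp for the G1 cyclins and kinases, 1667 bp for the CDK inhibitors, 1466 bp for the pocket proteins, 1448.5 bp for the Cdc25 phosphatases and Wee1, 1325.5 bp for the S to M cyclins and kinases, 1304 bp for the E2F factors and 1151 bp for the MCM subunits. These medians rest on 2 to 9 peaks each, and neighbours in this order overlap in range. The midpoint lay within 250 bp of the TSS for 33 of 41 peaks and downstream of it for 26, against 75.7% and 64.3% of all such peaks.

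**Figure D5:**
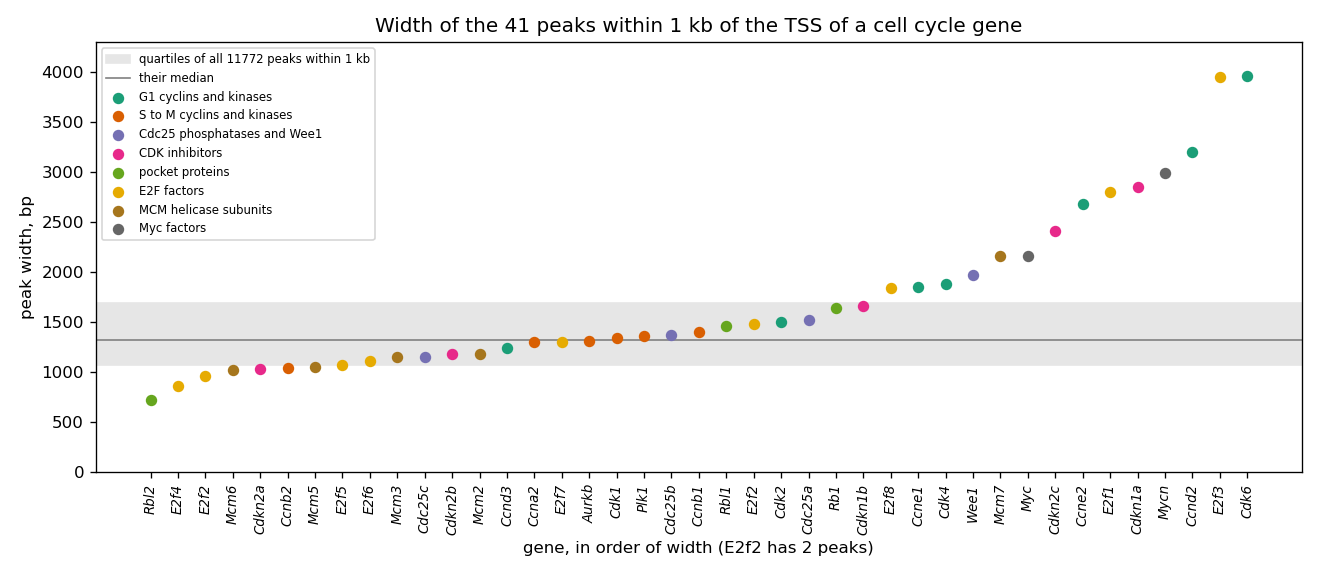
Width (vertical axis, bp) of each of the 41 peaks within 1 kb of the TSS of a cell cycle gene, in order of width and coloured by role group, with the median (line) and quartiles (grey band) of all 11772 such peaks. The values ran from 721 bp for Rbl2 to 3966 bp for Cdk6, and 10 exceeded 2 kb.

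Assignment of each peak to 1 gene affected which genes had a listed peak. When a peak of any symbol was allowed within 500 bp of an annotated TSS, 41 of the 45 genes had one (91.1%), against 56.3% of 22219 annotated coding genes. This set gained Ccna1 and lost Ccnd1. The genes without such a peak were Ccnd1, Aurka, Cdkn2d and Mcm4. Aurka and Mcm4 were also those of the 45 genes with a divergent coding neighbour, an arrangement found for 7.77% of all coding genes. A neighbour counted as divergent where its 5′-most TSS lay on the other strand, at most 1000 bp upstream or 100 bp downstream. Spef1 and Ap4m1, with a coding TSS in the peaks of Cdc25b and Mcm7, did not meet this definition. Whether the arrangement and the lack of a peak are related was not tested.

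Other genes of the same processes showed a like picture. Of 48 further cell cycle genes, 41 had an assigned peak and 40 had one within 1 kb, against 62.5% and 50.0% of all genes. By any symbol 47 had a peak at the TSS, against 56.3% of all annotated coding genes. Pcna, which encodes the sliding clamp of DNA polymerase, was the gene without. Of the 48 promoters 39 were CpG-rich (81.2%). A peak overlapped 38 of these (97.4%), against 89.4% of all CpG-rich promoters. In Orc1, Orc3 and Orc4, subunits of the origin recognition complex, the TSS peak was assigned to a neighbour, as it was in Foxm1, Lin52, Atr and Atm. An assigned peak was present at 14 of 18 genes of origin licensing and firing, 14 of 14 genes of the mitotic checkpoint and anaphase, 7 of 9 genes of the DREAM and MuvB complexes and 6 of 7 genes of the DNA damage checkpoint. For Atm, in the last group, it was a peak of 730 bp beyond 10 kb.

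E2F motifs were unevenly spread over these genes too. They were present in 9 of 18 origin licensing and firing promoters (50.0%, 29.0 to 71.0%) and in 0 of 14 mitotic checkpoint and anaphase promoters (0.0 to 21.5%), against 7.33% of all promoters. The DREAM and MuvB promoters held an E2F motif in 2 of 9 cases and the DNA damage checkpoint promoters in 3 of 7. CHR motifs were present in 8 of 18 origin licensing and firing promoters (24.6 to 66.3%), 11 of 14 mitotic checkpoint and anaphase promoters (52.4 to 92.4%), 5 of 9 DREAM and MuvB promoters and 2 of 7 DNA damage checkpoint promoters, against 47.1% of all. The 2 CHR intervals given overlap. Among CpG-rich promoters the shares were 12.3% for E2F motifs and 36.6% for CHR motifs.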

How the data were processed

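ATAC-seq was performed on 2 replicates of day 5 CPCs. The authors deposited 1 list for both, holding peak coordinates (start and end, bp) and a signed midpoint distance to a TSS (bp), with no score or signal,, next to an accession and a symbol. Per the study's methods and the submitters' processing notes, mapping to mm9 used Bowtie2, Picard 1.136 removed duplicates, MACS called peaks separately per replicate, and bedtools 2.15 kept those that overlapped between replicates.

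The list was read with pandas 2.3.3, positions were made 1-based, and intervals listed more than once were counted once. Sequence came from the NCBIM37 assembly (mm9) through pysam 0.24.0 and TSSs from the GENCODE vM1 annotation of it. The deposited distance matched an annotated TSS of the assigned gene within 1 bp for 36 of the 73 peaks. The 21900 genes came from a RefSeq table (GRCm38.p6, names only). Shares carry 95% Wilson intervals from scipy 1.17.1, which cover counting error over genes or peaks in this list only. Scripts were tested on simulated data. Genes were named in full where they had 3 or more peaks, one of the 5 widest or 3 narrowest TSS peaks, no assigned peak, or a TSS in a peak of another gene. The genes, lists and motifs were chosen with earlier results of these data known.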

Additional observations from a re-analysis of the deposited data

How the results depend on the processing

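Of 36 alternative settings over 11 results, 32 kept the value within 1.5 times or within its confidence interval. They covered the minimum peak width, repeated lines, the distance to the TSS, the TSS used, assignment by symbol or position, and the promoter window. The 4 that moved a value were the median in place of the mean of peaks per gene (1.0 against 1.62), 50 kb in place of 10 kb for genes with a distal peak (5 against 11), and the window from 250 bp upstream to 50 bp downstream of the TSS, which gave CCAAT boxes in 23 promoters against 35 and CHR motifs in 12 against 27. The shorter window and the longer distance count fewer bases or fewer peaks by construction, and the median is another summary of the same counts. Some settings counted as kept were weak checks. A minimum peak width of 500 bp could not change any value for the cell cycle genes described here, since their narrowest peak was 657 bp. In the shorter window, E2F motifs in 14 promoters against 21 were counted as kept at the limit of 1.5 times. Neither replicate could be left out, since both share 1 list. No paired analysis was possible because both samples belong to the same group.

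Read depth was unknown, and peak width depends on it and on the caller. Only regions called in both replicates are listed, and the list used here is not certain to be whole. Genes without a listed peak were therefore not shown to be inaccessible. Where a gene shares its promoter region with a neighbour, the assigned symbol names only 1 of them.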
